A study of Homo sapiens with 16 samples.

Results

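A group of neighbouring genes on the short arm of human chromosome 9 were described in MCF-10A, a nontransformed breast epithelial cell line. They are MLLT3, FOCAD, HACD4, KLHL9, MTAP, CDKN2A, CDKN2B, DMRTA1, ELAVL2 and TUSC1, listed in their order along the 9p21 to 9p22 bands. The 10 members, of 19962 protein-coding genes on the autosomes and X, were chosen by position, because this line is known to have lost CDKN2A and sequence beside it. Their canonical start sites span 5055.9 kb, from MLLT3 at base 20622499 to TUSC1 at base 25678444 of chromosome 9 (hg38). The data are lists of peaks called in each CUT&RUN library. In CUT&RUN, a nuclease brought in by an antibody releases the chromatin around a histone mark for sequencing. Cells received 5 mM octanoic acid (OA), a medium-chain fatty acid, or PBS as the vehicle for 24 hours, and each condition gave 3 libraries for H3K4me3 and 3 for H3K27me3. Another 2 H3K4me3 libraries and 2 IgG libraries, the negative control, came from untreated cells. Thus there were 16 libraries, 14 of them for the 2 marks. All came from 1 cell line, and the submitters describe the replicates as biological triplicates.

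Chromosome 9p21 is among the regions most often lost in human tumors and in immortalized cell lines. CDKN2A encodes p16INK4a, an inhibitor of the cyclin D kinases CDK4 and CDK6, and, from another first exon, ARF, which holds back the ubiquitin ligase MDM2. CDKN2B next to it encodes p15INK4b, a related inhibitor, and MTAP encodes the enzyme that returns methylthioadenosine to the methionine salvage pathway. H3K4me3 is found at the start sites of genes with active or poised promoters, most of all where CpG dinucleotides are dense, and H3K27me3 is the mark of Polycomb repression. A list of peaks holds no measure of DNA copy number. At a promoter without a peak, absent DNA and DNA that carries neither mark cannot be told apart from these files.

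The promoter sequences of 5 members show what the comparison rests on. KLHL9 and DMRTA1 had H3K4me3 peaks, while HACD4, MTAP and CDKN2A had none. Each run is the 300 bases from 250 before to 50 after the RefSeq start (GRCh38.p14), written 5′ to 3′ on the strand of the gene, with every CG dinucleotide in capitals. The windows are chr9:21335355-21335654 (minus strand) for KLHL9, chr9:21031591-21031890 (minus strand) for HACD4, chr9:21802386-21802685 (plus strand) for MTAP, chr9:21974808-21975107 (minus strand) for CDKN2A and chr9:22446574-22446873 (plus strand) for DMRTA1.
KLHL9: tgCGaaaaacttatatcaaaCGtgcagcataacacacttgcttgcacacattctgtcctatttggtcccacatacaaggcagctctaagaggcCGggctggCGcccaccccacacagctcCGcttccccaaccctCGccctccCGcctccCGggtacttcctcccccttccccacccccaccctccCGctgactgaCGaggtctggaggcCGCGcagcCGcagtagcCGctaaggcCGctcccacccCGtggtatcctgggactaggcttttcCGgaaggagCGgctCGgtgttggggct
HACD4: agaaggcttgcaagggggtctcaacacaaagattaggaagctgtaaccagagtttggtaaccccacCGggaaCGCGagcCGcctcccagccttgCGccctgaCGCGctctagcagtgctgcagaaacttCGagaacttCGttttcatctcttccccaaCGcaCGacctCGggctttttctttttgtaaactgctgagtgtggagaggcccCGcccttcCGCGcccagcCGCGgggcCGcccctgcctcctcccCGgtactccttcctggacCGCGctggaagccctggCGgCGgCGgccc
MTAP: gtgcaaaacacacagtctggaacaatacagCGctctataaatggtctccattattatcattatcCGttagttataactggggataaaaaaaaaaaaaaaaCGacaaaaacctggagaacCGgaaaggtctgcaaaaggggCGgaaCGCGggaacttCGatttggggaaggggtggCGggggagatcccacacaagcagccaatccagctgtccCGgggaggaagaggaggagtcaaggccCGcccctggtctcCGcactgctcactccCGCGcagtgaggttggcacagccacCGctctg
CDKN2A: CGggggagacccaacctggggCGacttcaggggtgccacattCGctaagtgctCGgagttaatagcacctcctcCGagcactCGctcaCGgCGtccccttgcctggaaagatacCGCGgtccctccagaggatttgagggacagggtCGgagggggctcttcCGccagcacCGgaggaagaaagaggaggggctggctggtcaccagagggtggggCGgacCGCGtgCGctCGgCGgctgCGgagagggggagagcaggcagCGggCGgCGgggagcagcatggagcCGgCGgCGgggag
DMRTA1: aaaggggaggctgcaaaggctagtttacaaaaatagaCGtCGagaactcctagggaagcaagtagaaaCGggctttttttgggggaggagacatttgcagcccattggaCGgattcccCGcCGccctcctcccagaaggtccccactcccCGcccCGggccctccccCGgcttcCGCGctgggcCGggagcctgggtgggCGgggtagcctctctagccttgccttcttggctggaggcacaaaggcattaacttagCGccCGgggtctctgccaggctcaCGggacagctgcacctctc
The DMRTA1 window holds 16 CG dinucleotides, against 15 in MTAP, 19 in KLHL9, 24 in HACD4 and 26 in CDKN2A. Empty and marked promoters of the locus thus did not separate by their number of CG dinucleotides.

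The libraries differed in how much was called. The H3K4me3 lists held 16018 to 21018 peaks in the vehicle and OA libraries, and 12868 and 11190 in the untreated libraries. Between 9084 and 47636 peaks were called for H3K27me3, the fewest in OA replicate 3 and the most in vehicle replicate 2. The IgG lists held 1245 and 1065 peaks. Numbers of reads were not used here, so the depth behind a missing peak is unknown. Of 10 breast epithelial marker genes, 6 had an H3K4me3 peak in all 6 vehicle and OA libraries, near the 56.5% of all protein-coding genes, and each of the others in at least 2 of them. Of 7 marker genes of other cell types, 6 had none, and the leukocyte gene PTPRC had one in 1 library.

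Most members carried H3K4me3 (6 of 10, with 56.5% of all protein-coding genes as the background). MLLT3, FOCAD, KLHL9, DMRTA1, ELAVL2 and TUSC1 had a peak within 3 kb of a GENCODE start site in each of the 3 vehicle and each of the 3 OA libraries. In the smaller untreated libraries, 3 members had a peak in replicate 1 (FOCAD, DMRTA1 and TUSC1) and 2 members in replicate 2 (ELAVL2 and TUSC1). Of all protein-coding genes, 53.3% had a peak in untreated replicate 1 and 49% in replicate 2, so the members lay below that background. No member had a peak in an IgG library, where 1.11% and 0.12% of all protein-coding genes had one. The same 6 members made up the count in vehicle and in OA, so the difference was 0 (two-sided exact permutation test, p = 1, n = 3 libraries per group, where the smallest p is 0.1). When each library was cut to its 11190 strongest peaks, as many as the smallest list has, only FOCAD, KLHL9 and TUSC1 were left with a peak in all 6 libraries.

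H3K27me3 was called at MLLT3 and FOCAD, 2 of 10 members. This is near the background, since 25.4% of all protein-coding genes had an H3K27me3 peak in at least 1 of the 6 libraries. MLLT3, a chromatin reader of the super elongation complex, had one in all 3 vehicle libraries and in OA replicates 1 and 2. In OA replicate 2 that peak lay at a start site inside the gene, and the nearest peak to the canonical start was 20.98 kb away. FOCAD, which encodes focadhesin, had one in vehicle replicate 2 alone, and 196 bp of it lay in the promoter window. The 3 vehicle libraries called 1, 2 and 1 members and the 3 OA libraries 1, 1 and 0, a mean of 1.33 ± 0.577 against 0.667 ± 0.577 (SD, n = 3). This difference of -0.667 members was within the spread between libraries (exact permutation p = 0.6). Of all protein-coding genes, 10.5%, 15.2% and 11.9% were called in the vehicle libraries and 15.8%, 10.9% and 4.65% in the OA libraries. The library without a member called, OA replicate 3, was also the one with the fewest peaks.

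HACD4, MTAP, CDKN2A and CDKN2B had no peak of either mark in any of the 14 libraries (4 of 10 members, where the background over all protein-coding genes is 15.8%). CDKN2A has 13 annotated start sites between bases 21970467 and 21995301, which take in the first exons of p16INK4a and of ARF, and none had a peak within 3 kb. MTAP likewise has 13, and CDKN2B has 3. The same 4 genes were without a peak when the window was widened to 10 kb. A 1 kb window, dropping peaks with a q-value above 1e-05 and leaving out a vehicle or OA replicate can only take peaks away. Under those settings the 4 genes were therefore bound to stay without a peak. Both IgG libraries were also empty at these promoters.

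MTAP, CDKN2A and CDKN2B are consecutive, and HACD4 is not part of their run. Between HACD4 and MTAP lie KLHL9, with H3K4me3 in all 6 libraries, and the cluster of type I interferon genes. HACD4, which encodes a dehydratase of very-long-chain fatty acid synthesis, starts 347.4 kb beyond FOCAD and 303.8 kb before KLHL9. Its nearest H3K4me3 peak was 303 to 528 kb away in the 8 libraries, but H3K27me3 was called 43.7 to 102 kb from its start in all 6. At MTAP the nearest H3K4me3 peak was 211 to 243 kb away, at CDKN2A 383 to 415 kb and at CDKN2B 417 to 450 kb.

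Peaks of both marks stopped on each side of CDKN2A. On the left, the last H3K4me3 peak that all 8 libraries shared lay over bases 21558567 to 21559906, at the start of the long noncoding RNA MIR31HG, the host of miR-31. A smaller region, bases 21591097 to 21591810, was called in vehicle replicate 2 and in OA replicates 2 and 3. On the right, the next H3K4me3 region was that of DMRTA1, bases 22446625 to 22448140, called in all vehicle and OA libraries and in untreated replicate 1. Between them, bases 21591811 to 22446624 held no H3K4me3 peak in any of the 8 libraries, a length of 854.8 kb. Of the 29803 such intervals in the genome, whose median length was 30.7 kb, 1.57% were at least as long. This share counts intervals by number and gives no weight to their length.

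The right edge sat directly at the DMRTA1 promoter. The first base under a peak, 22446625, was 199 bp before the canonical start at base 22446824. DMRTA1 encodes a DM-domain transcription factor, and its peak began between bases 22446625 and 22446817 in the 6 vehicle and OA libraries. Its own start site lay under the peak in each of them. The left edge, in contrast, was 210.8 kb before the start of MTAP.

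A single peak was called inside these 854.8 kb. It was an H3K27me3 peak of 165 bp in vehicle replicate 2, bases 21841656 to 21841820, in an intron of MTAP and 39020 bp past its start. Its fold enrichment over the local background was 4.71 and its −log10 q was 2.94, which placed it at percentile 94.3 of the peaks of that library. None of the other 5 H3K27me3 libraries had it, and vehicle replicate 2 had the most peaks of all. With it, the interval without a peak of either mark was 604.8 kb (bases 21841821 to 22446624). Without this single peak it was the same 854.8 kb as for H3K4me3. For H3K27me3 taken alone it ran from base 21841821 to base 22527833, or 686 kb.

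**Figure D1:**
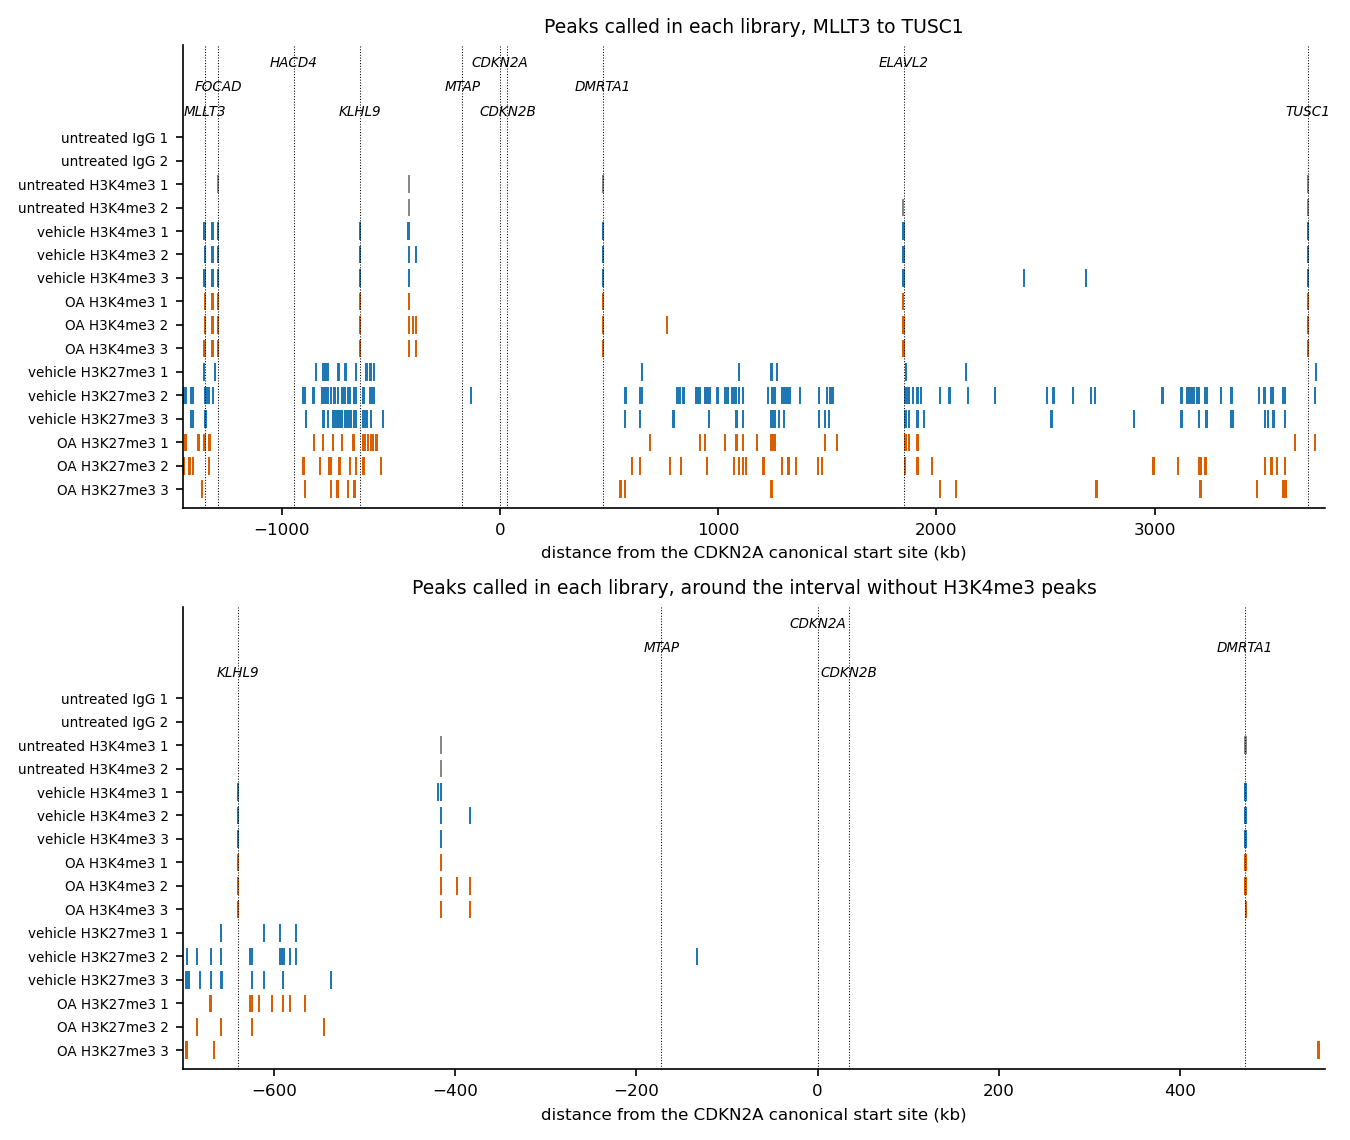
Peaks called in each of the 16 libraries, drawn by their distance in kb from the CDKN2A canonical start site, over the whole locus (top) and around the interval (bottom). Each bar is 1 peak, widened where needed to be seen (gray, untreated; blue, vehicle; orange, OA), and dotted lines are the members' canonical starts. The 854.8 kb between the region beside MIR31HG and DMRTA1 hold 1 peak, in vehicle H3K27me3 replicate 2.

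H3K27me3 was called on both sides of the interval. From the MLLT3 start to the interval, a stretch of 0.969 Mb, there were 12.38, 28.89 and 20.63 peaks per Mb in vehicle and 14.44, 11.35 and 5.16 in OA. From the interval to the TUSC1 start, 3.232 Mb, there were 1.86, 23.21 and 9.9 in vehicle and 5.57, 8.66 and 3.4 in OA. Over the genome the 6 libraries held 3.12 to 16.36 peaks per Mb. The stretch before the interval was thus above the mean of its own library in all 6. The stretch after it was below that mean in replicate 1 of vehicle (6.45) and of OA (11.11). It was just below in vehicle replicate 3 (9.91) and OA replicate 2 (8.77), and above in vehicle replicate 2 (16.36) and OA replicate 3 (3.12). Within the interval 5 libraries had 0 peaks. Of all 500 kb windows of the genome, which are shorter than this interval, 23.6% held at most 1 H3K27me3 call over the 6 libraries. Of the 98323 intervals between H3K27me3 peaks, 0.506% were at least as long as the 686 kb around CDKN2A. This share is by number and was not weighted by length.

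By number, empty intervals of this length were uncommon but not singular. For both marks together, 604.8 kb ranked 333 among 126146 intervals (0.264% at least as long, median 7.7 kb). Long intervals cover more bases than short ones, so the share of bases that lie in such intervals is larger. That share was not computed. Most of the 333 were gene-poor, since 233 held no canonical start site of a protein-coding gene and 12 held at least 3. The one described here held 2, those of CDKN2A and CDKN2B, while MTAP starts outside it, beyond the single H3K27me3 peak. Windows of 500 kb were counted in the same way. Of 56658 windows, 7.04% had no peak of either mark in any of the 14 libraries. Among the 31197 windows with at least 2 protein-coding starts, as many as this interval holds, it was 0.375%, or 117 windows. Of those, 2 lay in this interval and overlapped each other, since windows were moved in steps of 50 kb. The 117 windows overlap in groups in the same way and are not separate loci.

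**Figure D2:**
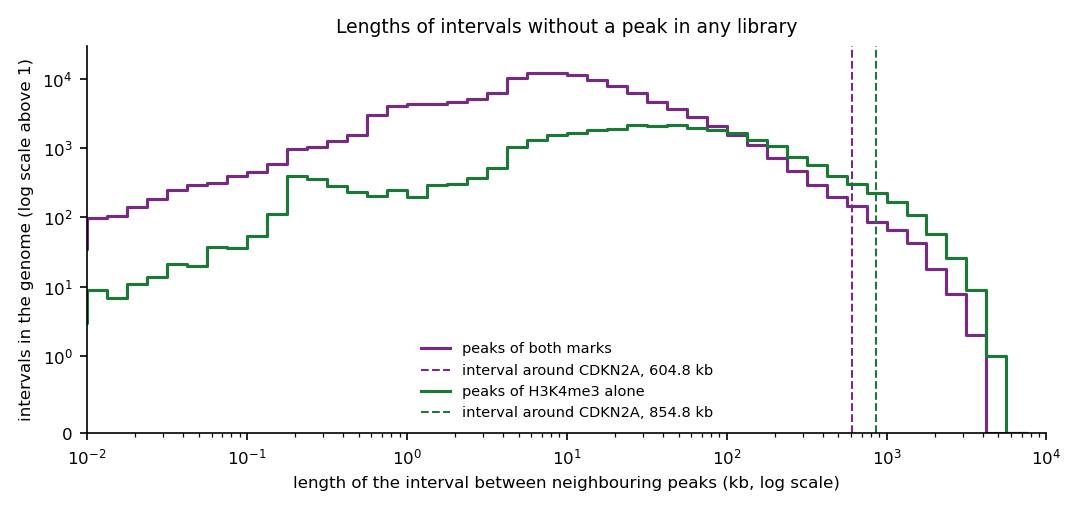
Lengths of the intervals between neighbouring peaks of any library, in kb on a log scale, against their number in the genome, for peaks of both marks (purple) and of H3K4me3 alone (green). The dashed lines mark the interval around CDKN2A, 604.8 kb for both marks and 854.8 kb for H3K4me3, and both lie far to the right of the medians of 7.7 and 30.7 kb.

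The empty promoters of the locus are of the CpG-dense kind. The CpG ratio, the number of CG dinucleotides over that expected from the C and G content, was 0.828 in HACD4, 0.764 in CDKN2A, 0.736 in CDKN2B and 0.715 in MTAP. The 6 members with H3K4me3 covered the same range, from 0.549 in DMRTA1 over 0.659 in TUSC1, 0.686 in KLHL9, 0.714 in MLLT3 and 0.795 in ELAVL2 to 0.892 in FOCAD. The content of G and C was 53% in MTAP, 62.7% in both HACD4 and KLHL9, and 69% in CDKN2A. MTAP is the least rich in G and C of the 10, and the other 3 empty promoters lie within the range of the marked members.

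Few promoters of that CpG ratio or above were empty elsewhere. Of 8843 promoters with at least the ratio of MTAP, 80.4% had H3K4me3 in all 6 libraries and 3.52% had no peak of either mark in any of the 14. Of the 6356 promoters with at least the ratio of HACD4, 83.1% had H3K4me3 in all 6 and 2.93%, or 186, had no peak. Shares within a narrow range of ratios were less extreme. Of the 2043 promoters from 0.7 to below 0.8, which take in MTAP, CDKN2A and CDKN2B, 71.4% had H3K4me3 in all 6 and 5.24% had no peak. Of the 2692 from 0.8 to below 0.9, which take in HACD4, it was 78.3% and 4.12%. All 10 members had a RefSeq promoter at their canonical start, but only 14654 of the 19962 genes did. A comparison with all protein-coding genes was therefore void, and these shares describe the matched promoters alone.

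**Figure D3:**
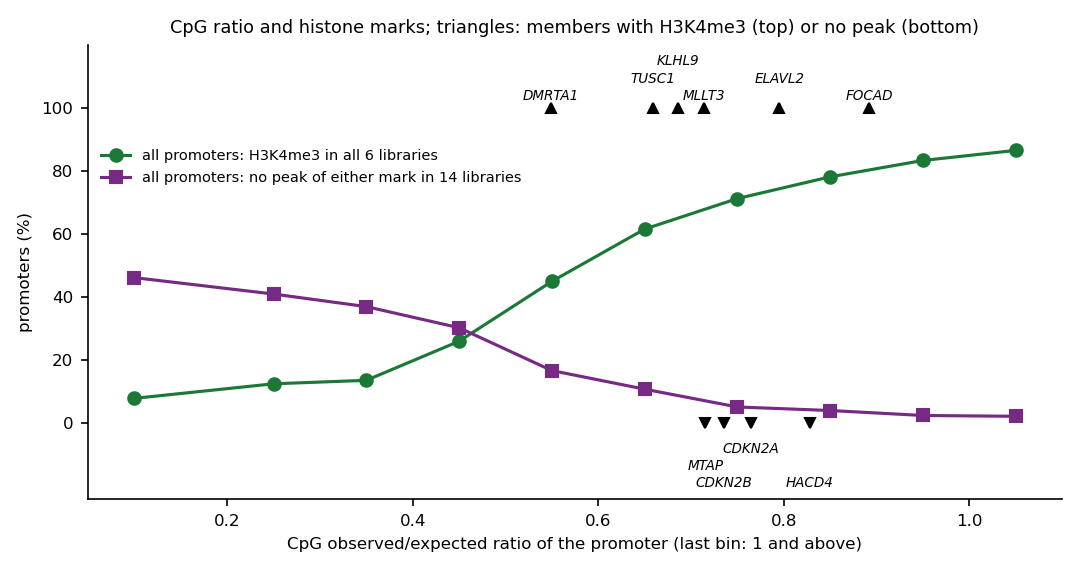
CpG ratio of the 300-base promoter against the percent of promoters with H3K4me3 in all 6 vehicle and OA libraries (green) and with no peak of either mark in the 14 libraries (purple), in bins of the ratio. Triangles place the members by their own ratio, at the top if marked and at the bottom if without a peak. The 4 empty members lie at 0.715 to 0.828, in the bins where 5.24% (0.7 to 0.8) and 4.12% (0.8 to 0.9) of promoters were empty.

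Runs of neighbouring protein-coding promoters without a peak set the 3 consecutive members in context. By canonical order, the run was IFNE, MTAP, CDKN2A and CDKN2B, 4 genes, and 102 of the 2050 runs of the genome were at least that long. The long noncoding RNA gene MIR31HG, marked in every H3K4me3 library, starts between IFNE and MTAP and was not counted. The longest were families of tissue-restricted genes. The run from OR4A16 to OR5M10 on chromosome 11 had 44 genes, that from OR13G1 to OR2M4 on chromosome 1 had 23, and that from KRTAP15-1 to KRTAP11-1 on chromosome 21 had 23. Then only neighbours with at least the CpG ratio of MTAP were counted, a choice made after the values were seen. By that count, 3 runs had 3 or more. MTAP has the lowest ratio of the 3 consecutive members, so these pass by construction. Genes without a matched promoter have no ratio and could not count, and only 14654 of 19962 genes were matched. By the same count, 2 of the 468 H3K4me3-free intervals of at least 854.8 kb held 3 or more such starts, this interval included. The 3 runs were MTAP to CDKN2B, ZSCAN1 to ZSCAN18 on chromosome 19 and PRR23A to PRR23C on chromosome 3.

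The other genes of the stretch were counted by the same windows. All 6 long noncoding RNA genes that start in the 854.8 kb interval, CDKN2A-DT and CDKN2B-AS1 (ANRIL) among them, had neither mark, as did the 3 members there. Several share promoter windows with these members, so they are not separate observations. ENSG00000264545 starts at the MTAP start, base 21802636, and CDKN2B-AS1 at base 21995133, among the CDKN2A starts. The share without either mark over all long noncoding RNA genes was not computed. Outside the interval but between MLLT3 and TUSC1, 15 long noncoding RNA genes start, and 8 of these had neither mark, 3 had H3K4me3 and 4 had H3K27me3. Of the 17 protein-coding genes outside the interval that are no members, 0 had H3K4me3, 12 had H3K27me3 and 5 had neither mark. All but 1 of the 17 are type I interferon genes, which encode antiviral cytokines. None of the 16 interferon genes had an H3K4me3 peak in the vehicle and OA libraries. In 12 of them an H3K27me3 peak was called in at least 1 library, where 25.4% of all protein-coding genes had one. IFNA21 had it in all 3 vehicle libraries and in 1 OA library, and IFNA6 in 2 of each. The 4 without either mark included IFNE, which starts 320.3 kb before MTAP.

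Among the marked members, KLHL9 and TUSC1 had the strongest H3K4me3 peaks by the rank of their p-value in each of the 6 vehicle and OA libraries, though not by fold in each. KLHL9, a substrate adaptor of the CUL3 ubiquitin ligase, had 1 peak of 816, 841 and 389 bp in vehicle and of 688, 756 and 761 bp in OA. The fold enrichment of that peak was 12.9, 17.5 and 14.9 across the vehicle replicates, against 8.56, 16.2 and 15.95 across the OA replicates. These values overlapped between the groups, with the lowest fold in OA replicate 1 and the shortest peak in vehicle replicate 3.

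TUSC1, a single-exon gene named as a tumor suppressor candidate, was the only member called in all 8 H3K4me3 libraries. The length under its peak was 1167, 1504 and 622 bp in vehicle, 1384, 1257 and 1354 bp in OA, and 912 and 571 bp in the untreated libraries. The OA values lay close together, inside the range of the vehicle values. The peak height recovered from the fold and p-value was 68, 75 and 47 fragments in vehicle and 46, 152 and 164 in OA. It is not scaled to depth, and OA replicate 1 fell below every vehicle library.

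FOCAD carried 2 separate H3K4me3 regions and ELAVL2 carried 3. At FOCAD these were bases 20658269 to 20659313 and bases 20683745 to 20685014, at 2 annotated starts, and the covered length was 1765, 1871 and 818 bp in vehicle and 1262, 1751 and 1891 bp in OA. By p-value, the stronger of the 2 was the canonical start in vehicle replicates 1 and 2 and OA replicate 3, and the upstream start in the other 3 libraries. By fold, the upstream start was higher in all but OA replicate 3, where it was 11.1 against 11.2. ELAVL2 encodes a neuronal RNA-binding protein of the Hu family. Its largest region, bases 23820574 to 23822025, lay within the gene with its middle 4804 to 5057 bp past the canonical start. That region was called in all 6 libraries, whereas the region at the canonical start, bases 23825454 to 23826432, was called in 3 vehicle and 2 OA libraries. A short region, bases 23825036 to 23825201, was called in vehicle replicate 3 alone. The length covered at ELAVL2 was 1400, 2302 and 1357 bp in vehicle and 769, 1972 and 1713 bp in OA.

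MLLT3 also carried 2 regions. Bases 20620941 to 20621879 were called in 2 vehicle and 1 OA libraries, and bases 20622101 to 20623837 in 3 vehicle and 3 OA libraries. At MLLT3 the covered length was 1006, 815 and 758 bp in vehicle and 531, 1497 and 2170 bp in OA. OA replicate 1 was the lowest and OA replicate 3 the highest of all 6. At DMRTA1 the vehicle libraries had 1004, 1037 and 610 bp and the OA libraries 904, 1092 and 1453 bp. In both genes the groups overlapped through OA replicate 1.

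No member changed its H3K4me3 length with OA beyond the spread between libraries. As mean ± SD (n = 3), the length went from 860 ± 130 bp in vehicle to 1399 ± 824 bp in OA at MLLT3 (exact permutation p = 0.4) and from 1686 ± 534 to 1485 ± 633 bp at ELAVL2 (exact p = 0.7). Exact p-values at FOCAD, KLHL9, DMRTA1 and TUSC1 were 0.7, 1, 0.4 and 0.6. All adjusted values were 1 over the 13433 genes tested (Benjamini-Hochberg), a design in which 3 against 3 libraries allow no p under 0.1. None of the 6 members had OA values that all lay above, or all below, the vehicle values. Of all genes tested, 9.24% did so with OA above and 0.305% with OA below. The median difference of the 6 members, 192 bp longer in OA, stood beside 138 bp over all genes tested, with 5 longer and 1 shorter.

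These counts rested on single libraries. Without vehicle replicate 2, TUSC1 was longer in OA with no overlap. Without vehicle replicate 3, KLHL9 was shorter in OA with no overlap, and without OA replicate 1, MLLT3 and DMRTA1 were longer. When the same number of strongest peaks was kept in each library, the DMRTA1 peak stayed in all 3 vehicle libraries and in no OA library. The share of all genes without overlap was not computed under these settings, and groups of fewer libraries separate more easily. These calls therefore have no background to be read against.

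**Figure D4:**
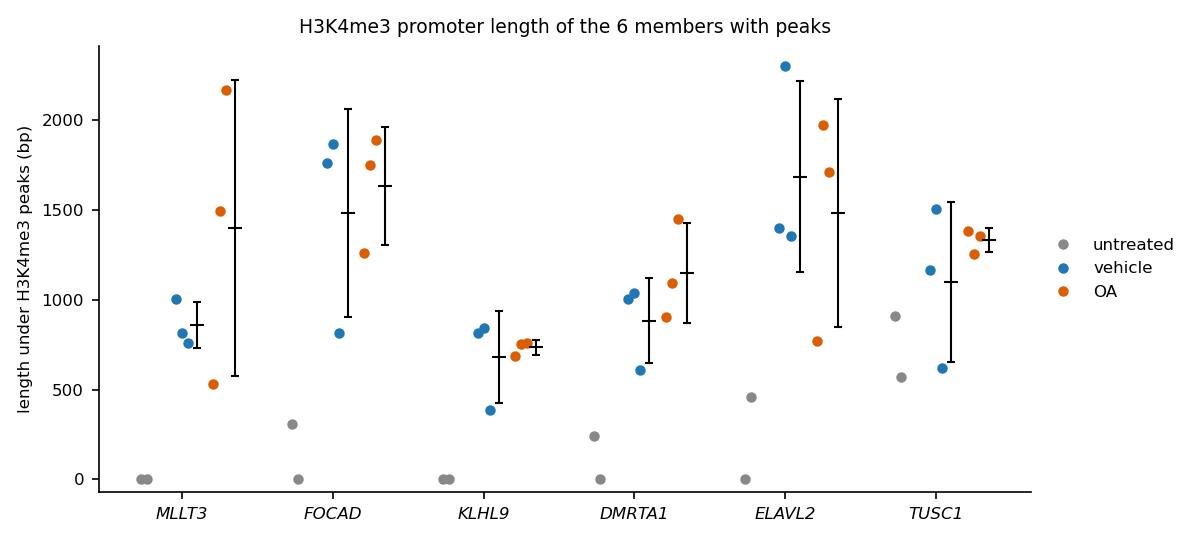
Promoter length in bp under H3K4me3 peaks for the 6 members with peaks, 1 point per library (gray, untreated, n = 2; blue, vehicle, n = 3; orange, OA, n = 3), with black bars for the mean ± SD of vehicle and OA. A library without a peak is at 0. Vehicle and OA points overlap at each of the 6 genes.

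For H3K27me3, MLLT3 was the only member with a peak in at least 2 libraries. Its covered length was 877, 1022 and 205 bp in vehicle and 1081, 522 and 0 bp in OA, or 701 ± 436 against 534 ± 541 bp (SD, n = 3; exact permutation p = 0.7). This length adds up peaks at the canonical start and at start sites inside the gene. The groups overlapped. Of 3243 genes tested for H3K27me3, 0.648% had OA above vehicle without overlap and 9.34% below. The lowest adjusted p over those genes was 0.897.

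The rank of a member's strongest H3K4me3 peak within its own library was also compared, a measure added after the values were seen. It is the percentile of the peak by its p-value, and it moves with the number of weak peaks in a list, which differed between libraries. At TUSC1 the vehicle libraries were at 77, 54.5 and 83.8 and the OA libraries at 91.2, 96.8 and 99, with means of 71.8 ± 15.3 and 95.7 ± 4 (SD, n = 3). All OA values lay above all vehicle values (exact permutation p = 0.1, the smallest possible, adjusted p = 0.568 over all genes tested), which did not pass the threshold. TUSC1 was 1 of 6 members above without overlap, where 11.2% of genes tested were, and no member was below, where 6.37% were. With the same number of strongest peaks in each library, the mean of TUSC1 was 36.5 higher in OA, against 23.9 with the lists as they are. The shorter untreated lists gave 52.7 and 10.5.

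The other 5 members overlapped in rank. KLHL9 was at 62.6, 59.1 and 66.7 in vehicle and at 61.9, 73.2 and 85.9 in OA, with 2 OA libraries above all vehicle libraries. DMRTA1 was at 47.3, 40.7 and 47 in vehicle and at 30.9, 32.9 and 45.5 in OA, with 2 below. Exact permutation p-values for the other members were 0.2 to 0.6.

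**Figure D5:**
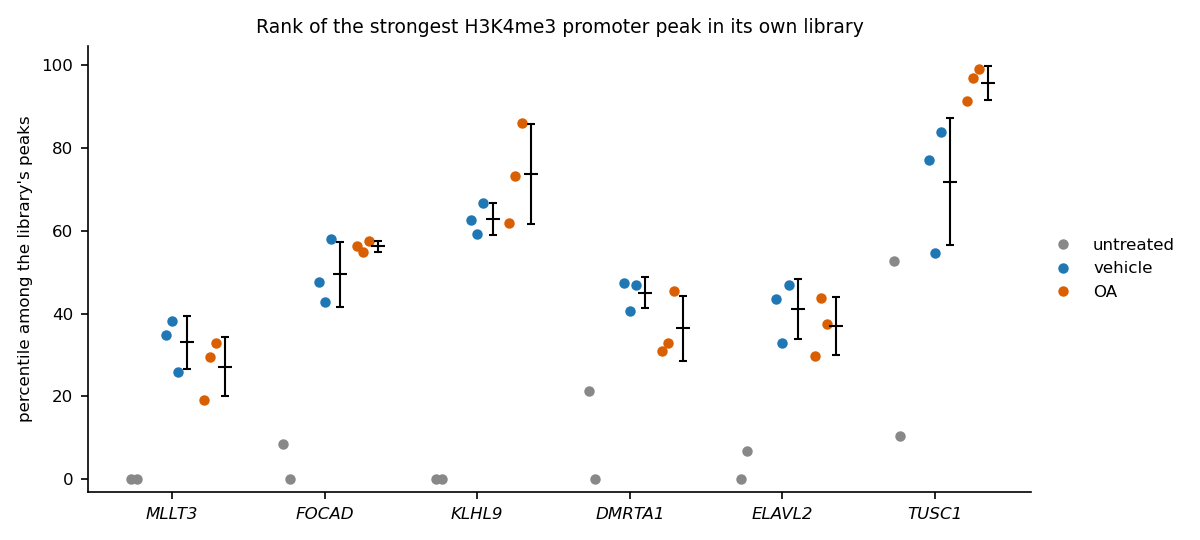
Percentile, among all H3K4me3 peaks of the same library, of the strongest promoter peak at the 6 members, 1 point per library (gray, untreated; blue, vehicle; orange, OA), with the mean ± SD (n = 3). A library without a peak is at 0. At TUSC1 the OA points (91.2 to 99) lie above the vehicle points (54.5 to 83.8).

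The partners of the empty genes had H3K4me3. In the p16 and RB pathway, 14 of 18 genes had H3K4me3 in all 6 vehicle and OA libraries, where 56.5% of all protein-coding genes did. CDK4 and CDK6, the kinases that p16INK4a inhibits, RB1 and both other inhibitors of the family, CDKN2C and CDKN2D, were among them. CDKN2A and CDKN2B were the 2 with no peak, CDKN1C had one in 5 libraries, and E2F2 in 4. CCND2, a cyclin D gene, had H3K27me3 in 5 libraries beside H3K4me3 in 6. MDM2, which ARF inhibits, and its relative MDM4 had H3K4me3 in all 6. Of 16 genes of the p16 and RB pathway that could be tested, CDK4 (896 ± 370 bp in vehicle, 1486 ± 311 bp in OA) and CDKN1C, which encodes p57KIP2 (330 ± 411 and 1236 ± 385 bp), did not overlap between the groups (exact permutation p = 0.1 and adjusted p = 1 each, SD, n = 3). These 2 of 16 stand beside the 9.24% of all genes tested.

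MTAP was likewise alone in its pathway. In methionine salvage and polyamine synthesis, 7 of 8 genes had H3K4me3 in all 6 libraries (56.5% of all protein-coding genes) and in both untreated ones, namely MRI1, APIP, ENOPH1, ADI1, AMD1, SRM and SMS. None of the 7 had covered lengths without overlap between vehicle and OA. PRMT5, the arginine methyltransferase that methylthioadenosine inhibits, and WDR77, RIOK1, CLNS1A and MAT2A had H3K4me3 in all 6 libraries. At PRMT5 the covered length was 1245 ± 369 bp in vehicle and 1174 ± 540 bp in OA (SD, n = 3).

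Relatives of the other members were counted in the same way, beside 56.5% of all protein-coding genes with H3K4me3 in all 6 libraries. HACD1, HACD2 and HACD3 all had H3K4me3 in all 6 libraries, unlike HACD4. So did KLHL13 and KLHL21, relatives of KLHL9, and the MLLT3 partners AFF1, AFF4, DOT1L, MLLT1 and ELL2. Of ELAVL1, ELAVL3 and ELAVL4, 1 of 3 had it in all 6, and of DMRT1, DMRT2, DMRT3 and DMRTA2, 0 of 4 did. Lists this short do not set the families apart from that background.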

How the data were processed

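H3K4me3, H3K27me3 and IgG CUT&RUN peak lists of 16 libraries were grouped by the submitters' labels. The authors called peaks per library. MACS2 v2.2.7.1 is named for H3K4me3. The submitters' processing notes list SICER and the study's methods SICER2 for H3K27me3, though those lists have the MACS2 broadPeak layout. Build hg38 is from the submitters' processing notes, and 0 of 297763 peaks on the autosomes and X ended past a chromosome of that build. The deposited fold is the ratio of a peak to its local background, and the deposited −log10 p and −log10 q come from the authors' caller. A deposited display score was not used. The highest q-value was 0.00998 in narrow and 0.1 in broad lists. The aligner, the handling of duplicates and the use of IgG as the caller's control are not given in the sources used here.

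From these lists, promoters were windows of 3 kb around every GENCODE release 44 start site, and a gene was called with 1 bp of overlap. Covered length is the number of window bases under a peak, tested by two-sided exact permutation (3 against 3) for genes called in at least 2 of 6 libraries, with Benjamini-Hochberg adjustment at 0.05. Intervals are stretches between neighbouring peaks of any library with at most 1% unknown bases. Windows of 500 kb were moved in steps of 50 kb. Peak heights were solved from the fold, taken as (pileup + 1)/(background + 1), and the Poisson p-value, for 41 of 41 member peaks. The CpG ratio is the CG count times the length, divided by the product of the C and G counts, in RefSeq promoters (GRCh38.p14). The study's read-based test could not be rerun on peak lists. Members and lists were chosen with earlier results of these data known. Named were the 10 members, the genes between MLLT3 and TUSC1, those at the edges of the interval and in the 3 longest runs, and listed pathway genes and markers, of which 1 is not reported here. No pair of replicates shared over 0.232% identical peaks. The alternatives were other windows, start sites, q-values and peak numbers, regions of at least 2 libraries, leaving out each replicate, and a fit with a replicate block. Scripts (Python 3.11.15 with numpy 2.4.6 and scipy 1.17.1, figures with matplotlib 3.10.9) were first tested on simulated data.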

Additional observations from a re-analysis of the deposited data

How the results depend on the processing

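The 4 members without a peak of either mark were 4 under all 12 alternatives run. Only the window of 10 kb could have given these members a peak, since the other settings only remove peaks or shorten windows. The interval around CDKN2A was 604.8 to 854.9 kb long under all of its own alternatives. It was longest when the libraries of both marks from vehicle replicate 2 were left out. It could have become shorter only with the IgG libraries added, where it stayed at 604.8 kb. The 6 members with H3K4me3 in all 6 libraries became 3 with the same number of strongest peaks in each library, and the difference between OA and vehicle in members called moved from 0 to -1.67 there and to -0.333 with the canonical start site. For H3K27me3 the difference of -0.667 members became 0 with 1 kb around start sites and with a q-value of at most 1e-05. At that q-value only 49 to 256 peaks were left in an H3K27me3 library. The number of members whose H3K4me3 length did not overlap went from 0 to 1 with the same number of strongest peaks and was 0 to 2 with each replicate left out. The cause was not tested, and the share of all genes under these settings was not computed.

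Single H3K4me3 length differences (OA minus vehicle) kept their direction in 64 of 71 alternatives. FOCAD turned to -73 bp with the canonical start site and to -183 bp without vehicle replicate 3, which also turned KLHL9 to -93.5 bp and TUSC1 to -3.83 bp. The highest values with a replicate left out were 343 bp at FOCAD, 132.5 bp at KLHL9 and 437 bp at TUSC1, each without vehicle replicate 2. DMRTA1 turned to -884 bp with the same number of strongest peaks. With a replicate left out, MLLT3 ranged from 154 bp (OA replicate 3) to 974 bp (OA replicate 1) and DMRTA1 from 114 bp (OA replicate 3) to 389 bp (OA replicate 1). ELAVL2 turned to 106 bp without vehicle replicate 2 and to 156 bp without OA replicate 1, with a lowest value of -445 bp without OA replicate 2. The H3K27me3 length of MLLT3 turned to 32 bp with 1 kb windows and to 100.2 bp without OA replicate 3, and was -440 bp without OA replicate 1. The mean percentile of TUSC1 was 15.3 to 36.5 higher in OA in every alternative run.

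Deviations of same-numbered vehicle and OA libraries correlated at -0.05, 0.32 and -0.28 for H3K4me3 and 0.01, 0.14 and 0.10 for H3K27me3. Those of differently numbered libraries correlated at -0.39 to 0.30 for H3K4me3 and -0.19 to 0.13 for H3K27me3. These values do not settle whether replicate numbers mark pairs. With the replicate block the differences in members were 0 and -0.667 (sign-flip exact p = 1 and 0.5, smallest 0.25), and 0 members moved one way in all 3 pairs for either mark, so the block changed no call. Peak lists without read numbers limit what a missing peak can show.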
